A study of Homo sapiens with 6 samples.

Results

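The genes described here are the repressor REST, 5 of its corepressors and 31 neuronal genes that REST is known to keep silent, 37 genes in all of the 56638 listed. They were found in the count tables by gene symbol. REST, also called NRSF, is a zinc-finger protein that binds a DNA element named RE1 and holds neuronal genes off in cells that are not neurons. It recruits SIN3A with histone deacetylases through one end of the protein, and RCOR1 (CoREST) with the histone demethylase KDM1A and the deacetylases HDAC1 and HDAC2 through the other. In cells outside the nervous system, loss of REST is known to release genes of synaptic vesicles, dense-core granules and ion channels. The mouse protein Zfp90 has been reported to bind NRSF and to weaken its repression of fetal heart genes, so the comparison bears on how these genes stand when ZFP90 is targeted.

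RNA was sequenced from HCT116, an established human colorectal cancer line, in 3 control libraries and 3 libraries labelled ZFP90 KO, made with guide RNAs against exon 3 of ZFP90. Both groups were the same line at passages 16 to 19 in RPMI-1640 medium with serum, and each library was made from 1 µg of total RNA. What the control cells received (a guide or none), the number of clones and whether replicates were separate cultures are not given in the labels, so the p-values rest on library-to-library spread that may be technical.

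Gene reads ran from 13424356 to 17012910 per library, and 3 reads equalled 0.181 to 0.224 CPM (reads scaled to a common library size). ZFP90 itself measured 47.4, 47.3 and 43.0 CPM in the controls and 86.7, 80.4 and 89.6 CPM in the libraries labelled knockout, an increase of 0.90 on the log2 scale (SE 0.066; edgeR adjusted p = 5.1e-05). RNA of the targeted gene was therefore not lowered. A gene count cannot show a small deletion, and every direction below is given for the libraries as labelled. Control replicate 2 held fewer reads than the other controls on chromosomes 6, 7, 8 and 9, at 87.7%, 81.0%, 75.7% and 70.6% of their level, on X at 54.6% and in the mitochondrial genome at 53.3%. On the other autosomes it stood at 102% to 104%. The members on these chromosomes were HDAC2 (6), VGF (7), STMN2, STMN4, NEFL and NEFM (8), GRIN1 (9), and SYN1, SYP, L1CAM and BEX1 (X).

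Of 10 epithelial markers, 6 passed the count filter (EPCAM, KRT8, KRT18, KRT19, CDH1 and CDX2), while CDX1, VIL1, CEACAM5 and LGALS4 had at most 4 reads in any library. The 10 summed to 2710 to 2840 CPM in controls and 2680 to 2800 CPM in libraries labelled knockout, and 1 was called (KRT18, log2 fold change -0.23, edgeR adjusted p = 0.0394). The 12 markers of neural cells summed to 26.8 to 29.6 CPM in controls and 28.7 to 31.5 CPM in libraries labelled knockout. Of these, 4 passed the filter (MAP2, RBFOX3, SLC17A7 and NCAM1) and 0 were called. Another 5, OLIG2, SLC17A6 and SLC32A1 among them, had 0 reads in every library. MAP2 gave most of the neural sum, with means of 21.5 CPM in controls and 24.3 CPM in libraries labelled knockout. The 15 enteroendocrine markers summed to 5.65 to 7.004 CPM and 5.66 to 6.34 CPM, with TPH1 alone past the filter and not called, and PAX4, NKX2-2, SCGN, GCG and SST at 0 reads. Leukocyte markers summed to 1.97 to 2.43 and 1.63 to 1.91 CPM with 0 of 10 past the filter. Markers of fibroblasts and endothelium summed to 75.4 to 96.1 and 75.9 to 97.4 CPM, with 5 of 10 past the filter and 0 called. COL1A1 gave most of these sums, with means of 73.8 CPM in controls and 74.1 CPM in libraries labelled knockout.

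On the repressor side, RCOR1, KDM1A and HDAC2 rose modestly in the libraries labelled knockout, and no member was called lower. REST and HDAC1 had values below 0 and were not called. All 6 genes passed the count filter. Of the 6, 3 were called higher and 0 lower, against 21.1% of the 16369 genes tested (1593 or 9.73% higher and 1861 or 11.4% lower). The members and lists were chosen with earlier results of these data known, so the shares called, here and below, are description only. Scaled by library size alone, 986 genes were higher and 2343 lower, and the counts of members were again 3 and 0. The groups did not overlap for 5 of the 6, and the same held for 6744 of all genes tested (41.2%). The median log2 fold change of the 6 was 0.18, against 0.008 over all genes tested. It was 0.13 without control replicate 2.

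REST measured 84.7, 89.5 and 84.6 CPM in control replicates 1 to 3 and 75.5, 77.5 and 81.0 CPM in the libraries labelled knockout. The lowest control lay above the highest library labelled knockout, but REST was not called, at -0.15 on the log2 scale (SE 0.053; edgeR adjusted p = 0.0854). Over 15 alternative fits its adjusted p ran from 0.0561 to 0.253, and none called it. SIN3A, the scaffold of the other deacetylase complex, measured 88.6, 89.6 and 97.1 against 98.5, 98.8 and 93.6 CPM. Its groups overlapped, and SIN3A was not called (log2 fold change 0.08, SE 0.056; adjusted p = 0.342).

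RCOR1, the scaffold of the CoREST complex, measured 109.7, 114 and 115 CPM in controls and 136, 138 and 139 CPM in libraries labelled knockout, with no overlap. It rose by 0.29 on the log2 scale (SE 0.046; edgeR adjusted p = 0.00318). KDM1A, the demethylase LSD1 that RCOR1 carries, measured 162, 163 and 165 against 209, 201 and 218 CPM. Its log2 fold change was 0.36 (SE 0.048; adjusted p = 0.0014), and both calls held in all 15 alternative fits. In bulk RNA a change per cell and a change in the share of cells cannot be told apart, here or below.

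Of the closely related deacetylases HDAC1 and HDAC2, which serve both complexes, HDAC2 rose and HDAC1 was not called. HDAC1 measured 218, 225 and 219 CPM in controls and 206, 205 and 208 CPM in libraries labelled knockout. The groups did not overlap, and the log2 fold change was -0.09 (SE 0.043; adjusted p = 0.152). HDAC2 measured 201, 159 and 199 against 234, 221 and 230 CPM, with control replicate 2 the lowest of all. It rose by 0.30 (SE 0.086; adjusted p = 0.0396). Leaving out control replicate 2, which was short of reads on chromosome 6, lowered the value to 0.20 with an adjusted p of 0.00681. The HDAC2 call was lost when any 1 library labelled knockout was left out, with the adjusted p reaching 0.13. The difference between the deacetylases was not tested.

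**Figure D1:**
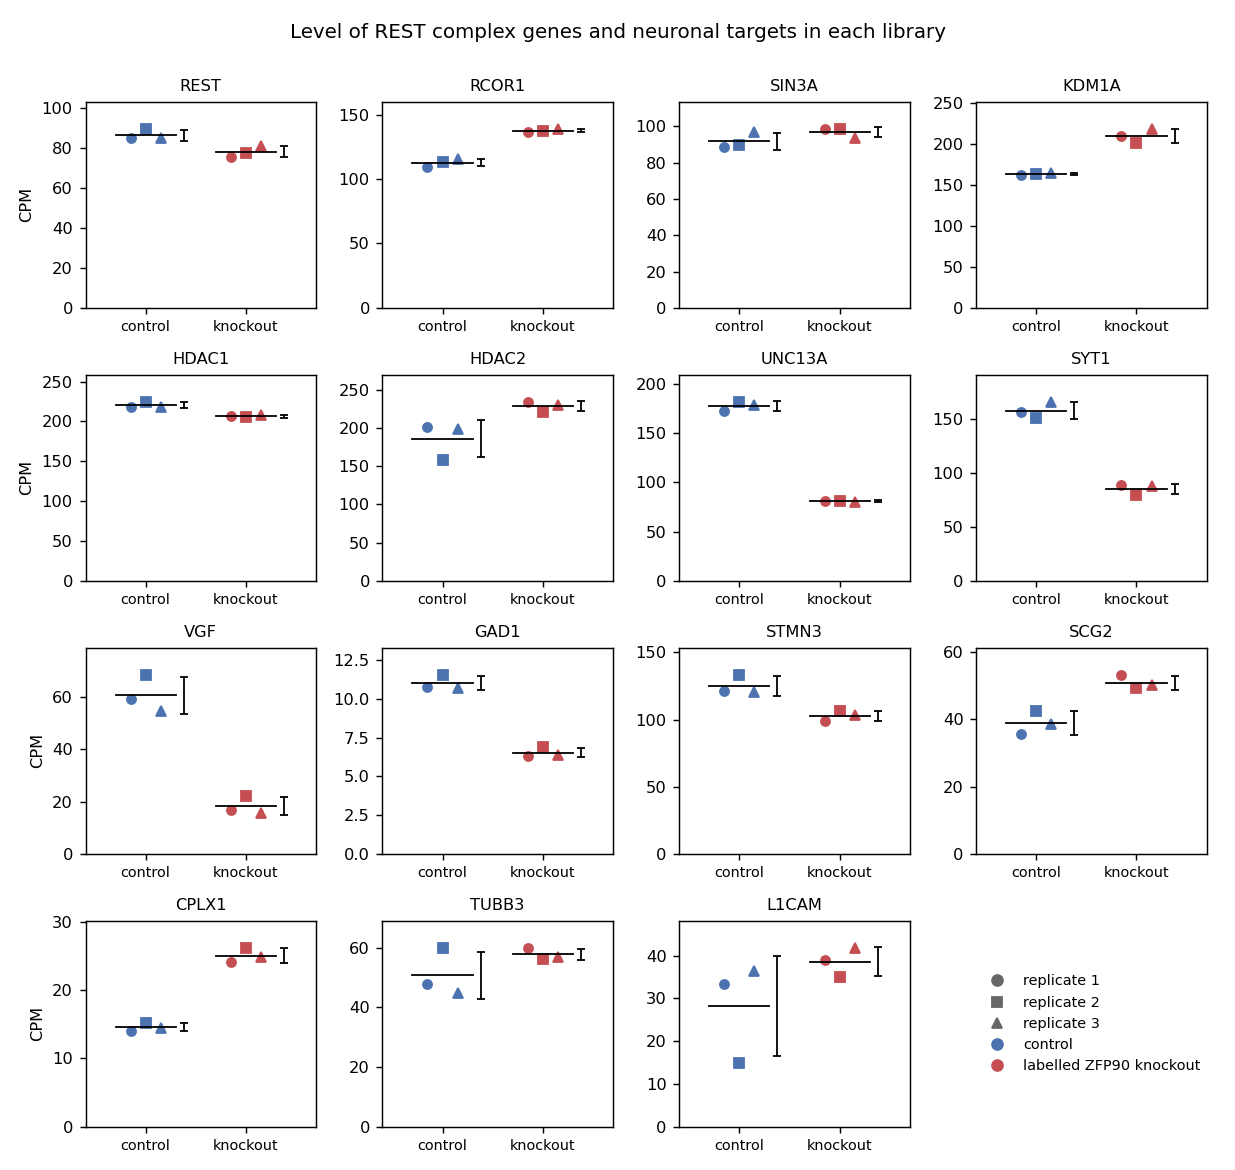
Level in CPM (y axis from 0) of 15 genes in each library, with a line at the group mean and a bar for 1 SD (n = 3 each). UNC13A, SYT1, VGF and GAD1 lie far below the controls in all libraries labelled knockout, CPLX1 and KDM1A lie above them, and control replicate 2 sits apart for L1CAM and HDAC2.

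Among the neuronal targets, UNC13A, SYT1, VGF, GAD1 and STMN3 fell, and CPLX1 and SCG2 rose. Among the 31 targets, 17 passed the count filter and 14 did not. Of the 17 tested, 5 were lower and 2 higher, a share of 41.2% called against 21.1% of all genes tested (11.4% lower, 9.73% higher). The groups did not overlap for 9 of the 17 (52.9%), against 41.2% of all genes tested. The median log2 fold change of the 17 was -0.15 against 0.008 over all genes, with 11 below 0 and 6 above. That median was -0.06 with control replicate 3 or with replicate 2 labelled knockout left out, -0.23 with control replicate 2 left out, and -0.29 with replicate 3 labelled knockout left out. Summed over all 31 genes, the targets amounted to 755 to 783 CPM in controls and 547 to 578 CPM in libraries labelled knockout. These sums weigh the abundant genes UNC13A, SYT1 and STMN3 most.

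The RE1 element has a left and a right arm, searched here as CAGCACC and GGACAGC. The promoters shown carry both arms, with at most 1 mismatch, and are a selection. Promoters of CELSR3 and of OPRL1, from a further list of REST targets, also do so and are not shown. Those shown come from RefSeq (GRCh38.p14) and are written on the gene's strand. Capitals mark the letters compared with the arms, which read as GGTGCTG and GCTGTCC where the element lies on the opposite strand. Stretches that reach past the gene's start end with the element.
UNC13A (minus strand of chr19:17688342-17688383): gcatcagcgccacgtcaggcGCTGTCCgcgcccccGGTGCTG
VGF (minus strand of chr7:101165561-101165596): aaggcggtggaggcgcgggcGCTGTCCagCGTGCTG
SYN1 (minus strand of chrX:47620053-47620107): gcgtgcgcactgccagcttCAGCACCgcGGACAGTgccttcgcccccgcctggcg
SCG3 (plus strand of chr15:51681513-51681534): CAGCACCcacagggcGGACAGC
GRIA2 (plus strand of chr4:157220371-157220426): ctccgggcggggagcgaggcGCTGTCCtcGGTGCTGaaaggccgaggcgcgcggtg

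In VGF the element ran from base -7 to 9 around the gene's start, with the arms 2 bases apart and 1 mismatch, C7G, counted from 1 at the first base of the left arm. SYN1 held it from -231 to -216 with 1 mismatch, C16T. GRIA2, a glutamate receptor gene that is another known REST target, matched both arms exactly and had 0 reads in every library. UNC13A carried both arms exactly from -9 to 13, but 8 bases apart, and SCG3 had the same spacing from 11 to 32.

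Of the 37 members, 26 matched the promoter table by symbol, with 36 promoters among them. Each promoter spans 250 bases before to 50 bases after a gene's start. SCG2, STMN2, STMN4, SNAP25, SCN3B, CHGB, GRIN1, NEFL, NEFM, RUNDC3A and CPLX1 had no entry, so their promoters were not searched. The targets called higher, CPLX1 and SCG2, are thus both unsearched. Among the targets called lower, SYT1, GAD1 and STMN3 had 1 promoter each searched, and no arm was found in them. TUBB3 and CELSR3, which held both arms, were not called, and SYN1 and SCG3 were not tested. A link between the arms and the direction of change was not tested. Arms 2 bases apart with at most 2 mismatches in 14 letters, on either strand, stood in 3 of the 36 (8.33%: SYN1, VGF and TUBB3) and in 284 of all 35116 promoters (0.809%). With at most 1 mismatch the counts were 2 of 36 and 41 of 35116 (0.117%). With no mismatch they were 0 of 36 and 15 of 35116 (0.0427%). Both exact arms in any order and at any spacing stood in 3 of 36 (CELSR3, UNC13A and SCG3) and in 0.738% of all promoters. An exact left arm stood in 6 of 36 and 7.75% of all promoters, and an exact right arm in 6 of 36 and 6.03%. Exact arms exactly 8 bases apart stood in 5 of all promoters (0.0142%), and 2 of these were UNC13A and SCG3. That spacing was looked at only after these matches were seen. In all promoters 2 bases was the commonest spacing of exact arms between 0 and 20, with 15 promoters, followed by 9 bases with 6. These are matches of letters and not measured binding.

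**Figure D2:**
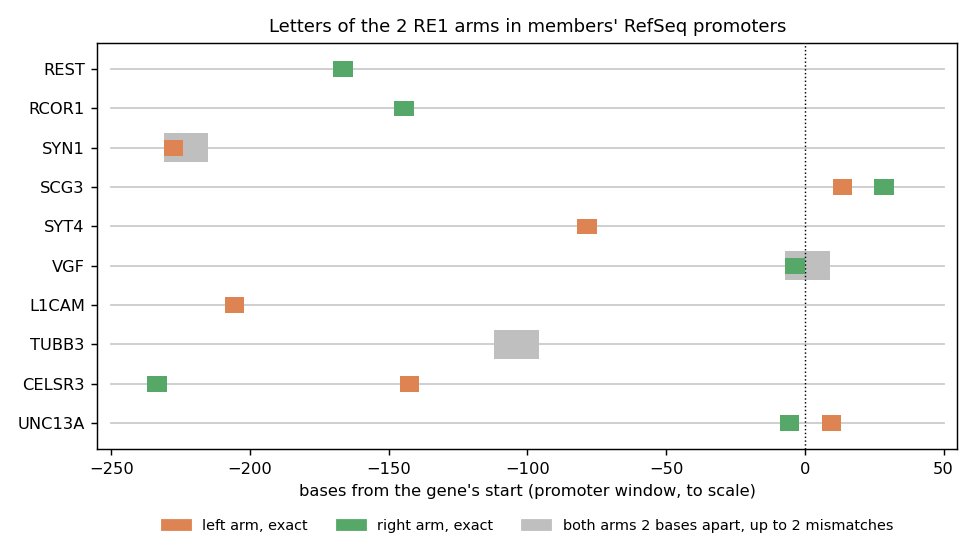
Position of the letters of the 2 RE1 arms in the promoters of the 10 members with a match among the 26 searched. The x axis gives bases from the gene's start (dotted line at the start). Small boxes are exact arms and grey boxes are both arms 2 bases apart with at most 2 mismatches. VGF has its grey box across the start, and SYN1 at -231 to -216. UNC13A has no grey box, and its exact arms lie on either side of the start.

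Among genes of vesicle release, UNC13A and SYT1 fell and CPLX1 rose. UNC13A primes synaptic vesicles for fusion, and its promoter is the first shown above. It measured 173, 182 and 179 CPM in controls and 81.5, 81.5 and 79.6 CPM in libraries labelled knockout. The groups were far apart, and UNC13A fell by 1.14 on the log2 scale (SE 0.047; edgeR adjusted p = 3.18e-06). SYT1, the calcium sensor of vesicle fusion, measured 157, 151 and 166 against 88.4, 79.5 and 87.5 CPM. It fell by 0.89 (SE 0.061; adjusted p = 3.64e-05), again with no overlap. CPLX1, a complexin that clamps the fusion machinery, went the other way, from 14.1, 15.2 and 14.5 to 24.1, 26.2 and 24.9 CPM. Its log2 fold change was 0.78 (SE 0.078; adjusted p = 0.000283). The 3 calls held in all 15 alternative fits.

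The other release genes were near or below the limit of the counts. SYP, a vesicle membrane protein on X, had 25, 7 and 11 reads in controls and 8, 10 and 12 in libraries labelled knockout. Its log2 fold change was -0.54 (SE 0.45; adjusted p = 0.427), and the groups overlapped. SYN1, a vesicle phosphoprotein and classic RE1 gene, had 11, 4 and 6 against 14, 9 and 4 reads and was not tested. The ratio of its summed reads was 1.25 (exact 95% counting interval 0.683 to 2.33). SNAP25, a membrane SNARE protein, had 1, 1 and 0 reads in controls and 8, 6 and 5 in libraries labelled knockout, so all libraries labelled knockout were above all controls. It falls outside the rule for per-library values and was singled out after its values were seen. The ratio was 9.27 with a counting interval from 2.24 to 82.0. When every gene with a read was tested, SNAP25 had an adjusted p of 0.00924 (edgeR). SYT4 had 0 reads in every library.

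Of the granule proteins, VGF fell and SCG2 rose. VGF, the precursor of several neuropeptides, measured 59.1, 68.6 and 54.7 CPM in controls and 16.8, 22.2 and 15.7 CPM in libraries labelled knockout. It fell by 1.74 (SE 0.13; edgeR adjusted p = 6.66e-05), the largest change among the members tested, and the groups did not overlap. Control replicate 2, which was short of reads on chromosome 7, had the highest VGF level. Without it the log2 fold change was -1.65, and with its counts adjusted by chromosome it was -1.86.

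SCG2 (secretogranin II) measured 35.5, 42.5 and 38.6 CPM in controls and 53.3, 49.3 and 50.2 CPM in libraries labelled knockout. Every library labelled knockout exceeded every control, and SCG2 rose by 0.39 (SE 0.077; adjusted p = 0.00832). It was called in all 15 alternative fits, with an adjusted p of at most 0.0485. The chromogranins were scarce. CHGA had 16, 6 and 8 against 2, 8 and 6 reads, which overlapped, and a ratio of 0.52 (counting interval 0.265 to 0.985). Its adjusted p was 0.267 when every gene with a read was tested (edgeR). CHGB had 4, 1 and 2 reads in controls and 0 in each library labelled knockout. Against a floor of 3 reads over the group labelled knockout, CHGB was 2.39-fold lower if its control reads are taken as exact. When every gene with a read was tested, CHGB had an adjusted p of 0.0818 (edgeR). SCG3 had 1, 4 and 2 against 6, 0 and 2 reads, with no direction at this depth.

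Among genes of the neuronal cytoskeleton, STMN3 fell slightly. STMN3, a stathmin that destabilises microtubules, measured 121, 133 and 120 CPM in controls and 98.7, 106 and 103 CPM in libraries labelled knockout. The groups did not overlap, with a fall of 0.28 (SE 0.059; edgeR adjusted p = 0.0107). Without replicate 1 labelled knockout the adjusted p was 0.0578. TUBB3, the neuronal beta tubulin, measured 47.9, 59.8 and 44.9 against 60.0, 56.3 and 56.9 CPM, and control replicate 2 lay among the libraries labelled knockout. Its log2 fold change was 0.18 (SE 0.10; adjusted p = 0.232). Without control replicate 2, TUBB3 was called higher at 0.32 (adjusted p = 0.00113). Of its exon bases, 35.8% are shared with another annotated gene on the same strand, and how reads there were counted is not known. The other stathmins and the neurofilaments were all but silent, with 1 read in 1 library for STMN2 and for STMN4 and 0 reads in every library for NEFL and NEFM.

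GAD1 was the one gene of transmitter synthesis in the set, and it fell. GAD1 makes the inhibitory transmitter GABA from glutamate, and 5.68% of its exon bases are shared with an annotated gene on the opposite strand. It measured 10.8, 11.6 and 10.7 CPM in controls and 6.33, 6.87 and 6.40 CPM in libraries labelled knockout, with no overlap. Its log2 fold change was -0.76 (SE 0.10; edgeR adjusted p = 0.00156), and it was called in all 15 alternative fits. No channel or receptor subunit was called. The pacemaker channel HCN2 averaged 2.92 ± 0.445 against 2.95 ± 0.604 CPM (SD, n = 3 each), with a log2 fold change of 0.03 (adjusted p = 0.937). The potassium channel KCNC1, at 5 to 17 reads per library, had a value of 0.64 with an SE of 0.38 (adjusted p = 0.271), which ran from 0.30 without control replicate 1 to 0.92 without control replicate 3. The sodium channel subunit SCN3B had 23 to 30 reads in controls and 14 to 20 in libraries labelled knockout, which did not overlap, with a value of -0.63 (SE 0.27; adjusted p = 0.135). SCN2A had at most 7 reads in a library. The glutamate receptor subunit GRIN1 averaged 10.3 ± 2.39 against 9.24 ± 0.958 CPM, with a log2 fold change of -0.15 (adjusted p = 0.592). Without control replicate 2, which was short of reads on chromosome 9, GRIN1 had a value of -0.33 (adjusted p = 0.0537). GRIN2A had 0 reads in the controls and 2, 0 and 2 in the libraries labelled knockout.

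Of the adhesion and signalling genes, none was called. L1CAM, a neural adhesion molecule on X, measured 33.3, 14.9 and 36.4 CPM in controls and 39.0, 35.0 and 41.9 CPM in libraries labelled knockout. Control replicate 2 lay far below the other 5 libraries, and X was where it was most short of reads after the mitochondrial genome. The log2 fold change of L1CAM was 0.46 (SE 0.26; edgeR adjusted p = 0.25) with it and 0.15 (adjusted p = 0.175) without it. When every gene with a read was tested, L1CAM was called higher (adjusted p = 0.000315). Other annotated genes share 798 of the 7270 exon bases of L1CAM. BDNF, a neuronal growth factor, averaged 47.7 ± 6.82 against 43.4 ± 9.74 CPM (SD, n = 3 each), with overlap and a value of -0.13 (adjusted p = 0.58). With 1 library left out, the BDNF value ran from -0.02 (control replicate 3) to -0.33 (replicate 3 labelled knockout). BDNF shares 9.06% of its exon bases with its antisense gene BDNF-AS. CELSR3, an atypical cadherin of axon guidance, averaged 38.1 ± 1.33 against 35.9 ± 4.07 CPM (log2 fold change -0.09, adjusted p = 0.529). RUNDC3A, a RUN-domain protein of neurons, at 17 to 28 reads per library, had a value of -0.43 (SE 0.21; adjusted p = 0.211) with groups that did not overlap. CALY, a neuronal vesicle protein, had 5, 6 and 7 against 6, 4 and 2 reads and was not tested. BEX1, a small brain-expressed protein, had 0 reads in every library.

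**Figure D3:**
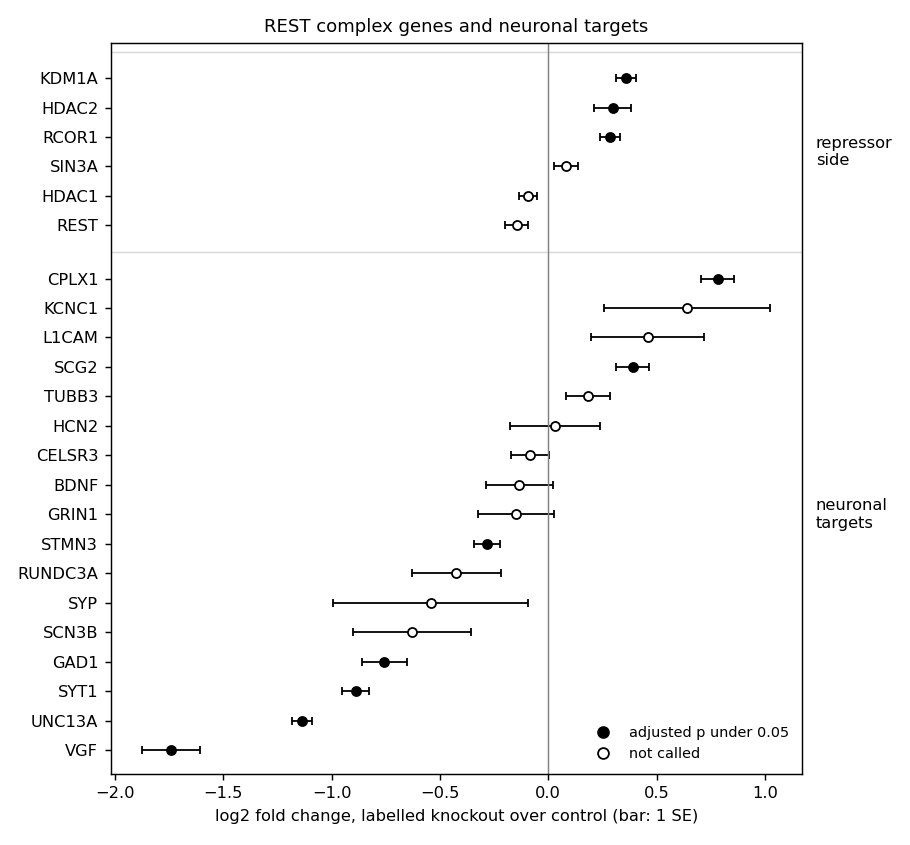
Log2 fold change of the libraries labelled knockout over control for the 23 members tested (x axis; bar, 1 SE; filled points, adjusted p under 0.05). The called targets span from VGF at -1.74 to CPLX1 at 0.78, while the called repressor genes lie between 0.29 and 0.36.

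Per kilobase of exon, the neuronal target with the most RNA in controls was STMN3 at 41.2 CPM per kb, then SYT1 at 24.3, VGF at 22.5, UNC13A at 15.9, SCG2 at 14.3 and TUBB3 at 11.5 CPM per kb. On the same scale REST stood at 10.8, RCOR1 at 18.2, KDM1A at 30.0 and HDAC1 at 55.6 CPM per kb. In libraries labelled knockout, VGF stood at 6.76, UNC13A at 7.23 and CPLX1 at 10.4 CPM per kb, the last up from 6.02. Exon lengths are unions over all annotated transcripts, which can understate genes with long alternative exons. Of the 14 targets that were not tested, 4 had 0 reads in every library and 12 had under 10 reads in each.

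**Figure D4:**
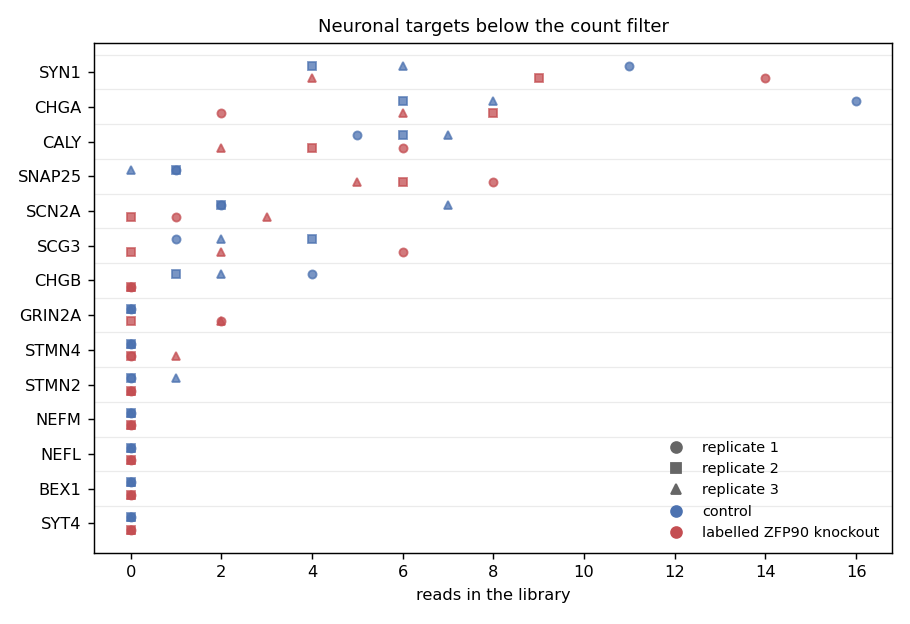
Reads per library (x axis) of the 14 targets below the count filter, controls in blue and libraries labelled knockout in red, with symbols for the replicates. SNAP25 and CHGB are the 2 genes whose groups do not overlap, in opposite directions, and none exceeds 16 reads.

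Among further cofactors of REST, PHF21A, ZMYND8 and RCOR3 fell and SMARCE1, SIN3B and CBX5 rose. All 27 listed passed the filter, and 3 were higher and 3 lower, a share of 22.2% against 21.1% of all genes. PHF21A (BHC80), the histone-tail reader of the LSD1 complex, averaged 54.5 ± 2.32 CPM in controls and 33.5 ± 0.746 CPM in libraries labelled knockout (SD, n = 3 each), a fall of 0.70 (SE 0.060; edgeR adjusted p = 0.000128). ZMYND8, a chromatin reader, fell by 0.38 (adjusted p = 0.000939) and RCOR3, a relative of RCOR1, by 0.29 (adjusted p = 0.0155). SMARCE1, a subunit of the SWI/SNF remodeller, rose by 0.27 (adjusted p = 0.00786; 19.8% of its exon bases are shared with other genes), SIN3B by 0.18 (adjusted p = 0.0281) and the heterochromatin protein gene CBX5 by 0.15 (adjusted p = 0.0386). The calls of SIN3B and CBX5 were lost when any 1 library other than control replicate 2 was left out, which left 1 of the 27 higher. Without control replicate 2, 6 were higher, and scaled by library size alone, 0 were. Over all genes, 2261 and 986 were higher in these fits, against 1593 in the main fit. With any 1 other library left out, 756 to 1174 of all genes were higher. The call of RCOR3 was lost without replicate 1 or 3 labelled knockout (adjusted p up to 0.0699).

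Of genes that act on REST or in its circuit, 19 of 21 passed the filter, and 5 were lower and 2 higher, a share of 36.8% against 21.1% of all genes. The other two, SRRM4 and DYNC1I1, had at most 3 reads in a library. USP15, a deubiquitinase known to raise newly made REST, averaged 75.03 ± 3.24 and 45.9 ± 1.68 CPM (SD, n = 3 each), a fall of 0.71 (SE 0.059; edgeR adjusted p = 0.000103). USP7, which also removes ubiquitin from REST, rose by 0.23 (adjusted p = 0.00649). PRICKLE1, known as a partner of REST in nuclear entry, had 27, 31 and 20 reads in controls and 8, 12 and 10 in libraries labelled knockout. It fell by 1.40 (SE 0.28; adjusted p = 0.00872) with no overlap. Genes on the opposite strand share 23.6% of its exon bases. The small phosphatases CTDSP2 and CTDSPL, which silence neuronal genes together with REST, fell by 0.38 and 0.46 (adjusted p = 0.0018 and 0.00901). PTBP2, a splicing regulator of neurons, fell by 0.34 (adjusted p = 0.0234), and TERF2, a telomere protein that binds REST, rose by 0.24 (adjusted p = 0.025). Leaving out replicate 1 or replicate 3 of either group ended the TERF2 call (adjusted p up to 0.0955). The PTBP2 call ended without control replicate 3 and without replicate 1 or 2 of the libraries labelled knockout (adjusted p up to 0.0904). Without control replicate 2, 4 of the 19 were higher, and 1 was higher without control replicate 1 or 3 or replicate 1 or 3 labelled knockout. Scaled by library size alone, 0 were higher. Over all genes, 2261 were higher without control replicate 2 and 756 to 1174 with any 1 other library left out. Library-size scaling gave 986 of all genes higher, against 1593 in the main fit.

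Of 97 further genes listed as REST targets, 44 passed the filter. Of these, 5 fell and 2 rose, a share of 15.9% against 21.1% of all genes. CHRM4, a muscarinic receptor, had 32, 26 and 40 reads in controls and 11, 2 and 10 in libraries labelled knockout and fell by 2.12 (SE 0.41; edgeR adjusted p = 0.00812). NOVA2, a neuronal splicing factor, fell by 1.30 (adjusted p = 0.0029). CALB2 (calretinin), a calcium-binding protein, averaged 31.6 ± 3.40 CPM in controls and 14.9 ± 1.96 CPM in libraries labelled knockout (SD, n = 3 each) and fell by 1.09 (adjusted p = 0.000411). DISP2, a relative of the Hedgehog release protein Dispatched, rose by 0.68 (adjusted p = 0.0402). The DISP2 call was lost when any 1 library other than control replicate 2 was left out (adjusted p up to 0.137) and in a fit with replicate numbers as a block. Without control replicate 2, 11 of these genes were lower and 2 higher, and without control replicate 3, 5 were lower and 4 higher. Over all genes, 2361 were lower and 2261 higher without control replicate 2, and 1404 and 1174 without control replicate 3. The main fit gave 1861 of all genes lower and 1593 higher. Without control replicate 1 or any 1 library labelled knockout, 1 of the further targets was higher, and 756 to 1093 of all genes were. The median over the 44 was -0.03, and it turned to 0.02 with control replicate 1 left out and to 0.05 with control replicate 3 left out.

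**Figure D5:**
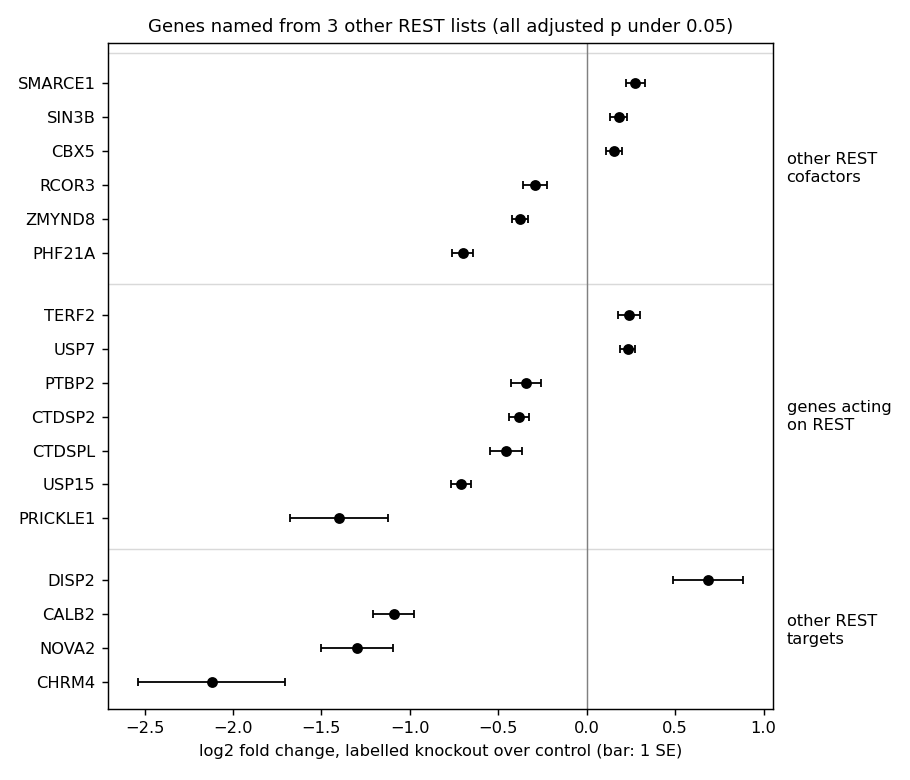
Log2 fold change of the libraries labelled knockout over control (x axis; bar, 1 SE) for the genes named from 3 further REST lists, all at adjusted p under 0.05. CHRM4 at -2.12 and PRICKLE1 at -1.40 lie lowest, and DISP2 at 0.68 highest.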

How the data were processed

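Each library came with 1 table of raw counts, reads per gene symbol, as deposited by the authors. Per the submitters' processing notes, TopHat2 2.0.11 and HTSeq were used with hg19 and GRCh37. Neither the HTSeq version nor its strand setting is given in the sources used here, so reads of antisense or overlapping genes cannot be told apart. The 5 summary lines held 31.7% to 32.37% of reads and were dropped before library sizes were computed. Counts were tested with edgeR 4.0.16 (R 4.3.3): quasi-likelihood test, TMM scaling, filterByExpr defaults (minimum count 10, total 15), Benjamini-Hochberg adjustment over 16369 genes, called under 0.05. SEs are the log2 fold change divided by the square root of F. CPM used TMM-scaled library sizes. The procedure was tested on simulated data.

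The members and lists were chosen with earlier results of these data known. Every member is named. Values per library are given for repressor genes, called members and untested members with at least 10 reads in a library; those of TUBB3, L1CAM, SYP and the members with fewer reads were added after they were seen. From other lists, called genes are named, up to 8 a list. A few genes of these lists are counted but not reported here by name. Chromosomes, overlaps and exon lengths came from GENCODE release 29 (GRCh38) by symbol, since the counts used another build. Alternatives were 3 scalings, DESeq2 1.42.0, limma-voom (limma 3.58.1), 2 filters, replicate numbers as a block, a stricter adjusted p of 0.01, control replicate 2 offset by chromosome, and each library left out. Every pair of replicates differed by more than sampling noise (chi-square per degree of freedom 2.19 to 19.7). Intervals cover counting error only, and the fold against a floor takes the reads of the other group as exact.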

Additional observations from a re-analysis of the deposited data

How the results depend on the processing

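All 10 called members kept their direction in the 15 alternative fits, and 8 were called in each; HDAC2 and STMN3 were not. Scaled by library size alone, 0 cofactors, 0 genes acting on REST and 986 of all genes were higher, and 8 further targets were lower. Upper-quartile scaling and DESeq2 each left 1 cofactor higher, with 1324 and 1298 of all genes higher against 1593. Testing every gene with a read (31920 genes) gave 4 neuronal targets, 6 cofactors, 5 further targets and 2252 of all genes higher. With control replicate 2 offset by chromosome, 7 cofactors, 4 genes acting on REST, 5 further targets and 2448 of all genes were higher, and 8 further targets lower. At an adjusted p under 0.01, 1 cofactor, 1 gene acting on REST, 1 further target and 618 of all genes were higher, and 869 of all genes lower.

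Leaving out 1 library at a time gave 2 to 3 repressor genes higher and 0 lower, and 2 to 3 neuronal targets higher and 4 to 5 lower. Cofactors higher ranged from 1 to 6, genes acting on REST higher from 1 to 4, further targets higher from 1 to 4 and lower from 5 to 11. Over all genes, 756 to 2261 were higher and 1025 to 2361 lower; the low ends came without replicate 1 labelled knockout and the high ends without control replicate 2. Among members that were not called, the value of SYP ranged from -0.879 to 0.047 (the latter without control replicate 1), that of CELSR3 from -0.141 to 0.003, and that of HCN2 from -0.088 to 0.178, with -0.036 under library-size scaling. Without changing sign, GRIN1 ranged from -0.33 to -0.043, L1CAM from 0.154 to 0.677, TUBB3 from 0.102 to 0.316 and SIN3A from 0.051 to 0.121. The cause of these shifts was not tested.

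With the replicate number as a block, 3 repressor genes were higher, and 2 neuronal targets were higher and 5 lower, as without it; of the genes named, the block ended the DISP2 call alone. Same-numbered libraries correlated at 0.082, 0.179 and 0.139 in their deviations from the group means over 14512 genes, so the numbers were not taken to pair them, although each library correlated best with its own number. Depth limits the 14 untested members most: 12 of them had under 10 reads in each library.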
